A study of Mus musculus with 4 samples.

Results

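The genes that write and erase methyl groups on lysine 4 of histone H3 (H3K4) were examined for occupancy by KDM5C, itself an H3K4 demethylase, to ask whether KDM5C sits at genes of its own pathway. They are 8 genes chosen by name: the demethylases Kdm5a, Kdm5b, Kdm5c, Kdm1a and Kdm1b, the methyltransferases Setd1a and Setd1b, and Ash2l, a subunit that methyltransferase complexes share. They stand among 22367 protein-coding genes annotated on the mouse chromosomes. A promoter peak was a ChIP-Seq peak with its midpoint within 1 kb of any annotated transcription start site (TSS) of the gene, and any other peak that overlapped the gene was counted as a gene-body peak.

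KDM5C occupancy was profiled at day 2 in male mouse epiblast-like cells (EpiLCs), cultured counterparts of the early post-implantation epiblast, by chromatin immunoprecipitation and sequencing (ChIP-Seq). Both genotypes carried a deletion in Tsix (labelled Tsix-del), the antisense gene that represses Xist. They differed in Kdm5c, also called Smcx, which was intact (wtSmcx, here WT) or lacked the exons that encode its catalytic JmjC domain (koSmcx, here KO). The labels give the strain as C57BL/6J, whereas the study's methods name a different background for its mutant mice and a mixed one for the floxed Kdm5c allele. Each genotype had 1 immunoprecipitated and 1 input sample, and the study's methods describe more than 1 WT line but a single KO sample for this antibody, whereas the series text speaks of technical duplicates and a supplement of the study lists a replicate pair for KO as well. The methods also continue differentiation beyond the EpiLC stage, a step that the culture protocol in the labels does not mention. The WT list held 6916 peaks on chromosomes and the KO list 44. Since a single list stands for each genotype, replicate error could not be measured, and no test between genotypes was made. The lists hold no read counts, and for depth the study states a minimum that its libraries met. A supplement also gives reads at the Xist locus and a scaling factor per replicate, and the KO factors lie far apart. Peak lists do not measure expression, so neither the cell type nor the loss of Kdm5c could be checked on them.

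Methylation of H3K4 is written by complexes in which a SET-domain enzyme is held by a core that includes ASH2L, WDR5, RBBP5 and DPY30. SETD1A and SETD1B place much of the trimethyl mark at active, CpG-rich promoters. The JmjC enzymes KDM5A, KDM5B and KDM5C remove methyl groups from the di- and trimethylated lysine, whereas KDM1A and KDM1B use flavin and act on the mono- and dimethylated form. KDM1A works with RCOR proteins and the deacetylases HDAC1 and HDAC2.

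Of the 8 genes, only Ash2l had a WT promoter peak, and that peak was among the weakest in the list. Kdm5a, Kdm5b, Kdm5c, Kdm1a, Kdm1b, Setd1a and Setd1b had 0. No gene-body peak was found in any of the 8, and no KO peak lay at or within any of them. The nearest WT peak outside the 1 kb limit lay upstream of Kdm5b.

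The DNA at these sites is shown for Ash2l, the one occupied promoter, for Kdm5c and Kdm1a, which had no promoter peak, and for the peak upstream of Kdm5b. Each promoter is the 200 bases before the most upstream CpG-rich TSS, read 5′ to 3′ on the strand of the gene, and the Kdm5b sequence is 300 bases centred on the peak summit. No annotated exon overlaps any of them. Capitals mark CpG dinucleotides. The coordinates are mm9: chr8:26951252-26951451 (minus strand) for Ash2l, chrX:148667363-148667562 (plus strand) for Kdm5c, chr4:136158639-136158838 (minus strand) for Kdm1a and chr1:136452808-136453107 (plus strand) for the Kdm5b peak.
Ash2l promoter: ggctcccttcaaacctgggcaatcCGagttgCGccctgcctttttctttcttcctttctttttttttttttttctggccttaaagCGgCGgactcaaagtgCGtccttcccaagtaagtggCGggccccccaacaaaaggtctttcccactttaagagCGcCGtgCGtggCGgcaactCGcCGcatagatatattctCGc
Kdm5c promoter: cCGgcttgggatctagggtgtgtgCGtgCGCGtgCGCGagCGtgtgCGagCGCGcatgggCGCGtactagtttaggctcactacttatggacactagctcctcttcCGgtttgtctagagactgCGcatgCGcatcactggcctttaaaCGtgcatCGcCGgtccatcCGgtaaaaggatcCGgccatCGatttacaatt
Kdm1a promoter: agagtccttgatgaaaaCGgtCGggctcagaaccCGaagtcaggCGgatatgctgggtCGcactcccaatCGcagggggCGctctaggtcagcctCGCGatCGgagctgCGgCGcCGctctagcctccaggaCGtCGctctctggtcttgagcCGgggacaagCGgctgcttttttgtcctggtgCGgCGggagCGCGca
Kdm5b upstream peak: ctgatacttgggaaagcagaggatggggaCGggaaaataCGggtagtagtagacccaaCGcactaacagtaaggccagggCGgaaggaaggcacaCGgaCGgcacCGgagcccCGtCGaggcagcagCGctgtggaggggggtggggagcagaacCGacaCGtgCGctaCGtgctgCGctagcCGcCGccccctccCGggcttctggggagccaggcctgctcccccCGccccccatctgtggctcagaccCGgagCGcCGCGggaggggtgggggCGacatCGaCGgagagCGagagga

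The Ash2l sequence holds 13 CpGs, fewer than the 21 in the Kdm5c sequence and the 21 in that of Kdm1a. The longer Kdm5b window holds 27. Among the printed promoters, that of Ash2l was thus not the one with the most CpGs. Its sequence covers only the upstream part of the peak and ends before the summit. Over the whole Ash2l peak, the observed/expected CpG ratio was 0.887 and the GC content 62.9%.

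Ash2l (ENSMUSG00000031575.10; chromosome 8, 26926663 to 26958166, minus strand) encodes a core subunit that methyltransferase complexes need for full activity. The peak called in WT cells lay at 26951032 to 26951454 (423 bp). Its score was 14, which is 10 times the −log10 of the q-value with decimals dropped. The fold enrichment over input was 2.17 and the q-value 0.0382, where the largest q-value in the WT list was 0.0977. By score the peak ranked 6813 of 6916, above 1.06% of WT peaks, and by fold enrichment it stood above 1.74%. The median WT peak scored 82 (quartiles 48 and 162) at a fold enrichment of 3.72 (quartiles 3.05 and 4.85). Ash2l therefore passed the authors' limit but lay at the lower end of what that limit admits.

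The position of the Ash2l peak was that of an ordinary promoter peak. Its midpoint lay 2 bp from the nearest annotated TSS. Its summit, at 26951187, lay 64 bp downstream of the most upstream TSS of that CpG-rich cluster (26951251), in a coding exon. No other gene had a TSS within 1 kb of the midpoint. Ash2l has 10 annotated TSS positions, of which 6 lay within 1 kb of the peak and the most upstream one, at 26958166, in CpG-poor sequence, did not.

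Kdm5b (ENSMUSG00000042207.10; chromosome 1, 136456748 to 136529454, plus strand) encodes a close relative of KDM5C. The WT peak closest to it ran from 136452484 to 136453398, with the midpoint 3807 bp upstream of the TSS, beyond the 1 kb limit. This peak was stronger than that of Ash2l, scoring 107 at a fold enrichment of 4.20, above 60.8% of WT peaks by score. Its width of 915 bp exceeded that of 87.8% of WT peaks. The summit lay in no annotated gene, although the sequence under the peak was CpG-rich, with an observed/expected CpG ratio of 0.66 and a GC content of 59.2%. No TSS of any gene lay within 1 kb of it, and the nearest was that of Kdm5b. Whether it belongs to Kdm5b was not tested.

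Kdm5c (ENSMUSG00000025332.8; X chromosome, 148667563 to 148709078, plus strand), the gene that encodes the profiled protein, was the farthest of the 8 from any WT peak. The nearest WT peak lay 217 kb from its closest TSS, at the promoter of Smc1a, an X-linked cohesin gene, with a score of 248. Among CpG-rich protein-coding genes without a promoter peak, 84.6% had a WT peak nearer than that. On X, however, such genes had their nearest WT peak at a median of 231 kb (upper quartile 628 kb), and the distance at Kdm5c lay just below that median.

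Kdm5a (ENSMUSG00000030180.9; chromosome 6, 120314117 to 120394592, plus strand) encodes another KDM5 demethylase. Its nearest WT peak lay 33.2 kb from a TSS within the gene and beyond the end of the gene, at the promoter of Il17ra, a cytokine receptor gene, with a score of 99. The CpG-rich TSS of Kdm5a faces that of Ccdc77 on the opposite strand at 257 bp, and this shared promoter had no peak.

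Kdm1a (ENSMUSG00000036940.9; chromosome 4, 136106455 to 136158638, minus strand) encodes LSD1, the flavin-dependent demethylase of many repressor complexes. A WT peak with a score of 551, ranked 289, lay 34.8 kb upstream and 15.0 kb from the TSS of Lactbl1, labelled noncoding in the annotation used. Kdm1b (ENSMUSG00000038080.9; chromosome 13, 47138868 to 47179982, plus strand) encodes the related enzyme that acts in oocytes. Its nearest WT peak, 29.0 kb upstream at the promoter of Nhlrc1, a ubiquitin ligase gene, was one of the strongest in the list, with a score of 982 and a rank of 70. The Kdm1b promoter itself, whose TSS lies 156 bp from that of Tpmt on the opposite strand, had no peak. Among CpG-rich protein-coding genes without a promoter peak, the median distance to the nearest WT peak was 58.4 kb. A nearer peak than that of Kdm1a was found for 34.7% of them, and than that of Kdm1b for 29.9%. Both strong peaks thus lay away from the promoters of these genes, at distances that were not unusual.

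Setd1a (ENSMUSG00000042308.8; chromosome 7, 134920184 to 134943636, plus strand) and Setd1b (ENSMUSG00000038384.10; chromosome 5, 123592202 to 123617444, plus strand) encode the methyltransferases. The nearest WT peak lay 63.0 kb from a TSS within Setd1a, at the promoter of the syntaxin gene Stx4a, with a score of 227. At Setd1b it lay 64.9 kb from a TSS within the gene, at the promoter of the proteasome gene Psmd9, with a score of 59. From the CpG-rich TSS of Setd1b, that peak was 86.1 kb away. A peak at Tmem120b, with a score of 94, was nearer to that TSS, 65.8 kb upstream. Neither methyltransferase gene had a peak in its body.

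**Figure D1:**
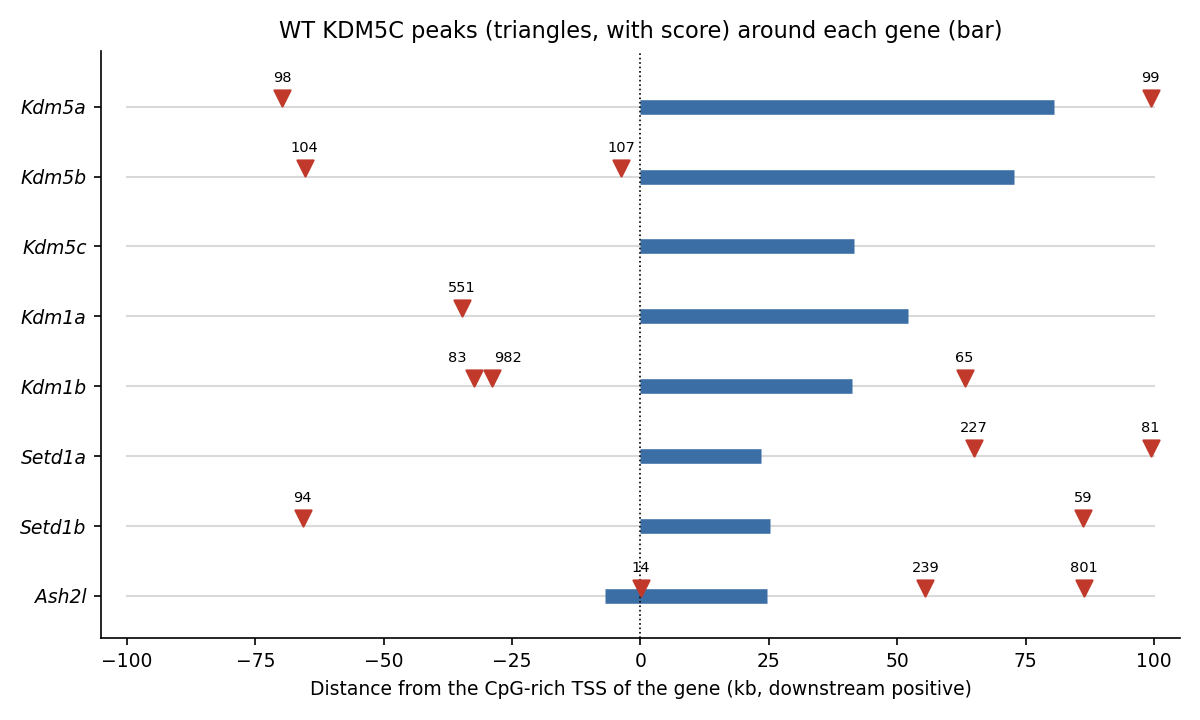
Positions of WT KDM5C peaks within 100 kb of the 8 genes, each aligned on its most upstream CpG-rich TSS (x axis, kb, downstream positive). Bars are the genes and triangles are peak midpoints with their scores. Only the Ash2l peak, of score 14, lies within 1 kb of a TSS of one of the 8 genes, the peak of score 107 lies 3.81 kb upstream of Kdm5b, and none lies within 100 kb of Kdm5c.

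The count was then read against other genes. A WT promoter peak was found for 1 of the 8 genes, or 12.5% (exact Clopper-Pearson 95% interval 0.316 to 52.7%). The background was 24.0% of all 22367 protein-coding genes. All 8 genes have a CpG-rich TSS, defined by an observed/expected CpG ratio of at least 0.6 and a GC content of at least 50% over 500 bp on either side. Among the 10941 protein-coding genes with such a TSS, 43.5% (95% interval 42.6 to 44.5%) had a WT promoter peak. The 8 genes have from 4 to 10 TSS positions each, and among CpG-rich genes with as many, the share was 41.5% (95% interval 40.0 to 42.9%). The interval for the 8 genes holds each of these shares, so 8 genes are too few to set them below the background. For Kdm5c the background is that of X, where 26.7% of 277 CpG-rich protein-coding genes had a WT promoter peak (95% interval 21.6 to 32.3%). These intervals cover counting error only.

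The counts of 0 are weaker still as measurements. Gene-body peaks were rare, with 4.23% of protein-coding genes carrying 1 or more, so 0 of 8 lies near the background, and the upper 95% limit on 0 of 8 is 36.9%. In the KO list 0.0939% of protein-coding genes had a promoter peak, and the nearest KO peaks lay from 4.22 Mb (Kdm1a) to 115 Mb (Setd1a) away for the 7 genes whose chromosome held any. Chromosome 1, with Kdm5b, held none. No KO peak overlapped the Ash2l peak or the peak upstream of Kdm5b.

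**Figure D2:**
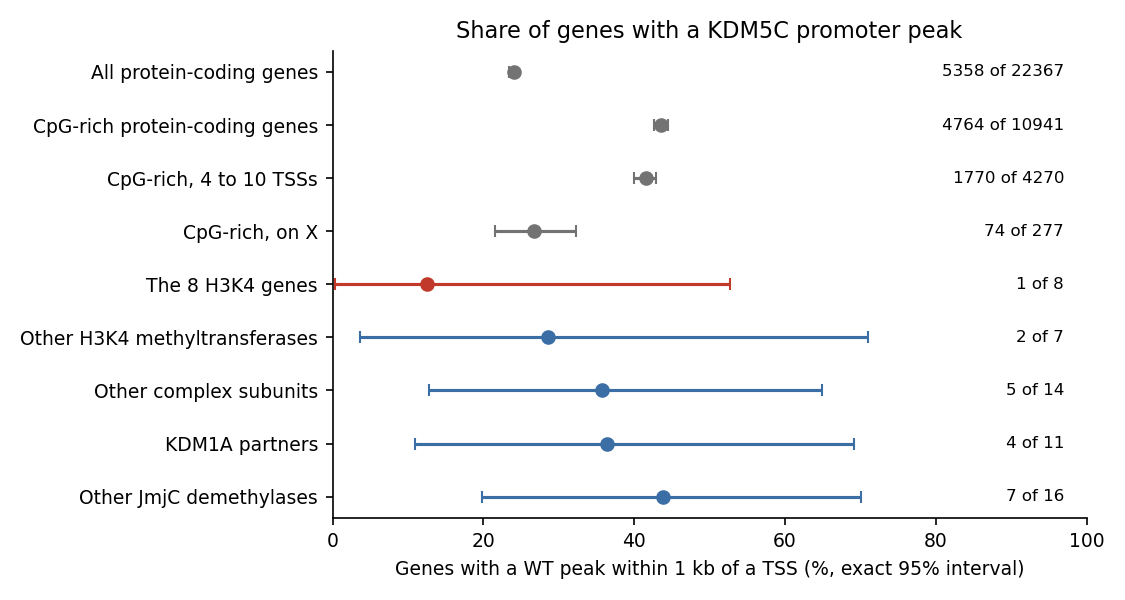
Percentage of genes with a WT peak within 1 kb of a TSS (x axis) for the protein-coding backgrounds (grey), the 8 H3K4 genes (red) and 4 wider lists of pathway genes (blue). Points are shares, bars are exact 95% intervals and the counts stand at the right. The interval for the 8 genes, 0.316 to 52.7%, spans all 4 backgrounds.

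Only uniquely mapped reads were kept by the authors, so the sequence around the most upstream CpG-rich TSS of each gene was compared with the rest of the genome. Within 500 bp of the CpG-rich TSS, all 952 sequence words of 50 bases, the read length, occurred once in the mm9 assembly for each of the 8 genes (100%). Exact copies were counted, and near-identical copies were not. Promoter peaks were called up to 1 kb from any TSS, and that wider sequence was not covered in full.

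Members without a peak included those of the 8 with the highest observed/expected CpG ratios. When CpG-rich promoters were cut into 4 bins of near-equal size, the share with a WT peak went from 35.0% (95% interval 33.2 to 36.8%) in the lowest bin of observed/expected CpG to 52.0% (95% interval 50.2 to 53.9%) in the highest. Kdm5a, with a ratio of 0.949, and Kdm1a, with 0.96, lay in the highest bin and had no peak. Ash2l, with 0.84, lay in the next bin below, together with Kdm5b, Kdm5c, Setd1a and Setd1b. Kdm1b, with 0.744, lay in the bin above the lowest. Each gene was placed by its most upstream CpG-rich TSS, and the bin depends on that choice. Other CpG-rich TSSs of Setd1a (ratio up to 0.958) and Kdm5c (up to 0.889) would lie in the highest bin, from 0.871. Others of Setd1b (0.694) and Ash2l (0.654) would lie in the lowest, up to 0.696. Around the most upstream CpG-rich TSSs, the GC content ran from 51.5% at Kdm5c to 72.4% at Setd1b, and Ash2l, at 61.7%, lay between them. Another TSS of Setd1a reached 73.5%.

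**Figure D3:**
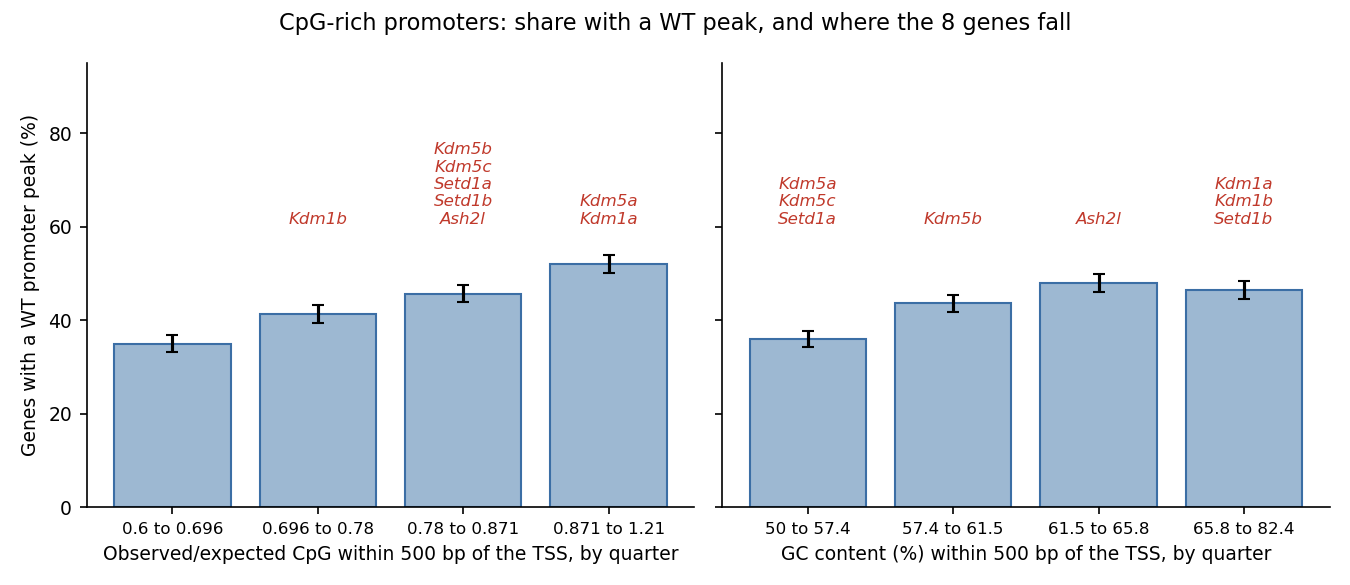
Percentage of CpG-rich protein-coding genes with a WT promoter peak (bars, with exact 95% intervals) by bin of observed/expected CpG (left) and of GC content (right). Both were taken within 500 bp of the most upstream CpG-rich TSS of each gene. The names above the bars show the bin of each of the 8 genes. None of the 8 lies in the lowest bin of CpG ratio, where the share is 35.0%, and 2 lie in the highest, where it is 52.0%.

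Short motifs were counted on both strands from 250 bp upstream to 50 bp downstream of the most upstream CpG-rich TSS of each gene. CACGTG, the E-box read by MAX and its partners, was in 0 of the 8 promoters. It was in 14.2% of CpG-rich promoters with a WT peak (95% interval 13.3 to 15.3%) and in 8.56% of those without (95% interval 7.88 to 9.29%). GGCGGGAA, an E2F-type motif, was likewise in 0 of the 8, and in 4.99% of CpG-rich promoters. CCGCCC, a GC-box sequence, was found in Kdm5b (1 match), Setd1a (1 match) and Kdm1b (6 matches), and in 72.3% of CpG-rich promoters. Ash2l had none of the 3 motifs in that window. The peak upstream of Kdm5b held a CACGTG, 11 bp from its summit, at 136452966 to 136452971 on chromosome 1, within the sequence printed above. The same sequence held 3 matches of CCGCCC. The shares above are for windows at TSSs and give no background for a window at a summit. These matches describe letters and do not show a bound factor.

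Promoters of other genes near the 8 were also examined. Within 100 kb of their CpG-rich TSSs lay 18 other CpG-rich protein-coding genes, of which 12, or 66.7% (95% interval 41.0 to 86.7%), had a WT promoter peak. That interval holds the 43.5% of all CpG-rich genes, and the 12 genes share 10 peaks, so they are not independent. The occupied neighbours were 4 of 4 around Ash2l, at 2 peaks that each served a pair of genes, 2 of 4 around Kdm1b, 2 of 3 around Kdm5a, 2 of 3 around Setd1b, 1 of 2 around Setd1a and 1 of 1 around Kdm5b. Kdm5c had 1 such neighbour, without a peak, and Kdm1a had none. The peaks at 86.4 kb and 55.5 kb downstream of the Ash2l TSS had scores of 801 and 239, against 14 at Ash2l itself. The second of these lay within 1 kb of TSSs of both Bag4, a cochaperone gene, and Lsm1.

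The rest of the pathway was described from 4 lists with 48 genes in all, of which 18, or 37.5% (95% interval 24.0 to 52.6%), had a WT promoter peak. Of the 44 with a CpG-rich TSS, 18 did, or 40.9% (95% interval 26.3 to 56.8%), an interval that holds the 43.5% of CpG-rich genes at large. The lists thus lay near the background of CpG-rich genes.

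Among 7 other H3K4 methyltransferase genes, Kmt2b and Setd7 had a promoter peak. Kmt2b, which encodes a large methyltransferase of the MLL family, had a pair of them, with scores of 202 and 25. Setd7, a monomethyltransferase gene, had a score of 59, and 5031434O11Rik also has a TSS within 1 kb of that peak. Kmt2a, Kmt2c, Kmt2d, Smyd3 and Prdm9, the meiotic methyltransferase gene, had none. At Kmt2d the nearest WT peak lay 1193 bp from a TSS, just outside the limit.

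Among 14 genes for other subunits of these complexes, 5 had a promoter peak: Wdr82 with a score of 258, Bod1l with 192, Paxip1 with 92, Wdr5 with 61 and Rbbp5 with 24. WDR82 and BOD1L belong to the SETD1 complexes and PAXIP1 to those of KMT2C and KMT2D. Of the core that includes ASH2L, the genes Wdr5 and Rbbp5 carried peaks below the WT median of 82, and Dpy30 carried none. A score below the median is no trait of this core, since 9 of the 18 pathway genes reached the median. Both peaks scored above the 14 of Ash2l. At Rbbp5 the gene 6030442K20Rik also has a TSS within 1 kb of the peak midpoint. Cxxc1, Hcfc1, Bod1, Men1, Psip1, Ncoa6, Pagr1a and Kdm6a had no promoter peak.

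Among 11 genes for partners of KDM1A, 4 had a promoter peak. At Hdac2, which encodes a deacetylase of the KDM1A complex, the WT peak on chromosome 10, 36693570 to 36694901, scored 2062, was enriched 22.5-fold over input and ranked 5 in the whole list. Hdac2 was also the one gene of the lists with a KO promoter peak, at 36693795 to 36694124, which ranked 11 of 44 in the KO list with a score of 152. Hdac2 was therefore called in both genotypes, and the lists, called separately, do not give the size of the difference. Gse1 had a score of 64, Rcor2 a pair of peaks with scores of 53 and 47, and Zmym2 a score of 39. Hdac1, Rcor1 and Rcor3 had none, and for Rcor3 the nearest WT peak lay 1080 bp from a TSS.

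Among 16 other JmjC demethylase genes, 7 had a promoter peak. Kdm3a, an H3K9 demethylase gene, had peaks with scores of 378 and 33. Kdm4c, which acts on H3K9 and H3K36, had a score of 268 in a promoter that it shares with A230083N12Rik, and Kdm8 a score of 258. Kdm2a (140), Phf8 (32), Kdm2b (21) and Jmjd1c (21) followed by score, and the Kdm2b peak also lay within 1 kb of a TSS of Orai1. Kdm5d, the Y-linked homologue of Kdm5c, had no peak, and neither list held any on Y.

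**Figure D4:**
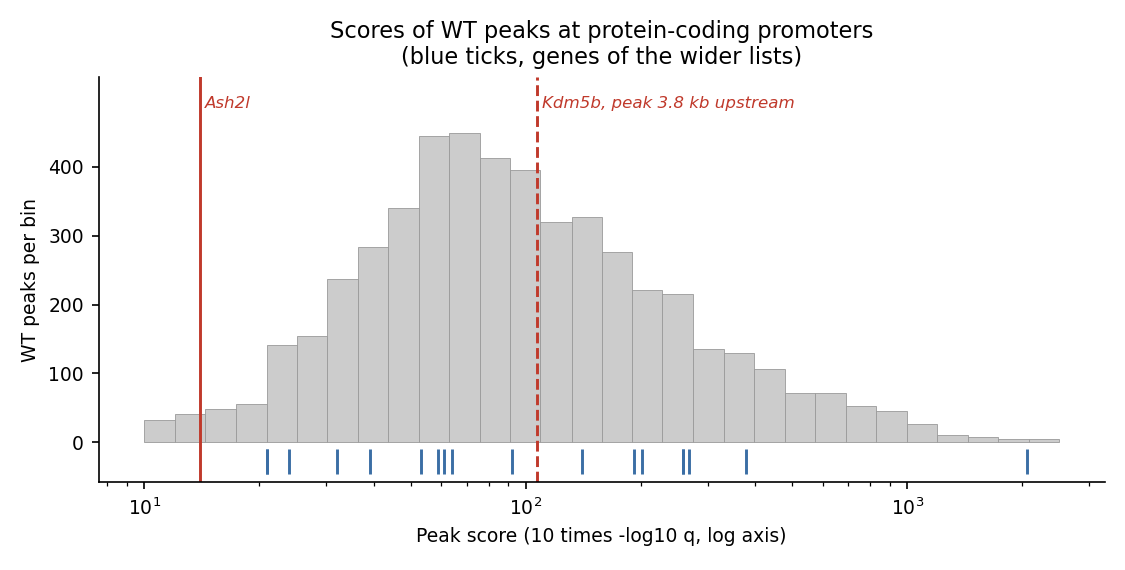
Scores (x axis, log scale) of the 5064 WT peaks within 1 kb of a protein-coding TSS, as peaks per bin (y axis). The solid red line is the Ash2l peak at 14, above 0.968% of them, the dashed red line is the peak upstream of Kdm5b at 107, which is not itself a promoter peak, and the blue ticks are the highest peaks of the 18 pathway genes, from 21 to 2062.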

How the data were processed

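Peak positions came from the study's KDM5C ChIP-Seq in day 2 EpiLCs. The authors mapped single-end reads to mm9 with Bowtie, kept unique reads, and ran MACS2 2.1.0.20140616 with input as control, keeping peaks under a limit on the q-value. The labels' tool list names Bowtie 1.1.2, and the methods name a later version. Per peak, the authors deposited a score, a fold enrichment (a ratio over input), the −log10 of the q-value and a summit offset (another column, of p-values, was not used here). By the peak names and the methods, WT peaks were called on pooled samples and KO peaks on a single sample, although other parts of the study list a KO pair. Values were not compared between lists. The lengths of the lists can differ for reasons other than genotype.

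Peaks on random contigs were left out. TSSs were those of every transcript in GENCODE M1 on NCBIM37, the same assembly as mm9. Coordinates count from 1. The 8 genes and the wider lists were chosen with earlier results of these data known. Every listed gene was found in the annotation, 7 of them by an older symbol. All 8 genes were named. From each wider list, genes with a WT promoter peak were named, and genes nearest to other peaks were named after their values were seen. The backgrounds by number of TSSs and on X were also added after seeing the data. Shares carry exact Clopper-Pearson 95% intervals over genes, which take genes as independent. Promoter calls were tested on simulated peaks. Sequences were read from the assembly with Python 3.11.15 and NumPy 2.4.6, and intervals were computed with SciPy 1.17.1.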

Additional observations from a re-analysis of the deposited data

How the results depend on the processing

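Of 34 alternative values for 8 results, 21 were labelled the same or close to it, 13 moved and 0 reversed. The results are counts or a share without a direction, so none could reverse. The genes of the 8 with a peak and their peaks gave identical values and entered separately. The limit for close was not uniform: pathway genes going from 18 to 15 counted as close, a share going from 43.5% to 46.3% as moved. With a 5 kb window, the genes of the 8 with a WT promoter peak and their peaks both went from 1 to 2, the added one being Kdm5b. When peaks had to reach the median WT score both fell to 0, and likewise at the 90th percentile. The same score limits left 2897 and 623 of the 5358 protein-coding genes and 9 and 2 of the 18 pathway genes, since a score limit removes peaks by construction. The share of CpG-rich genes with a WT promoter peak was 40.0% with a 500 bp window, 46.3% with 5 kb and 48.9% under stricter CpG limits (a ratio of at least 0.75 and GC of at least 55%). Use of the summit or of TSSs of protein-coding transcripts alone left the count for the 8 genes at 1. No paired analysis was possible because WT and KO are each represented by a single list of peaks. Without read counts, weak binding below the authors' limit cannot be told apart from no binding at the 7 promoters.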
